A study of Homo sapiens with 20 samples.

Results

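Bortezomib resistance was examined across 4 human cell lines at once, to ask which RNA changes were shared by all of them. The comparison took the 8 libraries of bortezomib-resistant cells (BtzR) and the 8 libraries of their parental cells (WT), 16 of the 20 RNA-seq libraries of the series, with 2 replicate libraries in each of 8 groups. AMO1, L363 and RPMI are multiple myeloma lines. ARH77 is grouped with them in the labels and is known as a B-lymphoblastoid line. All cells were cultured in RPMI-1640 medium with serum, and the resistant cells were additionally kept in 90 nM bortezomib, so that resistance and the continued presence of the drug cannot be told apart in any line. No drug is named for the WT cells. Each resistant line was made from its own parent, so a group stands for the cells of 1 derivation, and the 4 lines are the independent units for a statement about resistance in general. The 4 carfilzomib-resistant libraries (CfzR) did not enter the comparison.

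Bortezomib is a boronic acid that blocks the chymotrypsin-like active site of the 20S proteasome, the barrel-shaped protease that degrades ubiquitin-tagged proteins. That active site lies in the β5 subunit, encoded by PSMB5. Plasma cells and myeloma cells secrete large amounts of immunoglobulin and so lean heavily on protein folding and degradation, and resistance to bortezomib in culture is known to come with altered proteasome subunits, chaperones, efflux pumps and loss of plasma cell features.

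Values are FPKM, fragments scaled to transcript length and to the mapped fragments of the library, and changes are differences in log2(FPKM + 1), BtzR minus WT. Of 18305 genes listed, 13063 reached a mean of 1 FPKM in at least 1 of the 8 groups and were tested with limma, with the cell line as a block. A gene was called at an adjusted p under 0.05, and called consistent if, in addition, both BtzR libraries lay beyond both WT libraries, in the same direction, in each of the 4 lines. Across the tested genes the 2 libraries of a group correlated at r = 0.986 (ARH77 WT) or above. Each BtzR library correlated with its own WT libraries at r = 0.902 (RPMI) or above, and libraries of different lines at r = 0.888 or below. At least 8 of the 9 plasma cell markers reached 1 FPKM in every group, while all 9 mature B-cell markers reached it in ARH77 and at most 3 in the other lines. The summed level of the plasma cell markers was lower in the BtzR than in the WT libraries of every line. It was carried mainly by JCHAIN and SDC1 in AMO1 and by JCHAIN in L363 and RPMI. Single markers went the other way. PRDM1 was higher in AMO1, L363 and RPMI BtzR, XBP1 in RPMI and ARH77 BtzR, and IRF4 in L363 and RPMI BtzR. SLAMF7 and MZB1 were higher in AMO1 BtzR, and SDC1 in ARH77 BtzR. The sum was 6971 to 8420 FPKM in AMO1 WT and 4810 to 5343 in AMO1 BtzR, 7042 to 9273 in L363 WT and 5928 to 6374 in L363 BtzR. It was 3474 to 3754 in RPMI WT and 1674 to 1958 in RPMI BtzR, and 348.5 to 352 in ARH77 WT and 304 to 322 in ARH77 BtzR. NK-cell markers summed to 54.0 to 79.9 FPKM in ARH77 WT and 131 to 183 in ARH77 BtzR, carried by NKG7 alone (73.8 and 45.7 to 177 and 124 FPKM), and T-cell markers to at most 14.6 FPKM in any library, with CD3D listed at 0 outside ARH77 BtzR. In bulk RNA fewer cells of a type and less RNA per cell cannot be told apart, and the part of these marker sums in the results was not tested.

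The shared response was small in size and narrow in membership. The line-blocked fit called 582 genes higher (4.46% of those tested) and 691 lower (5.29%) in BtzR cells, and 176 genes (1.35%) were consistently higher and 227 (1.74%) consistently lower in all 4 lines, 403 in all (3.09%). Counted without the call, libraries separated in all 4 lines upward for 200 genes (1.53%) and downward for 248 (1.90%). Among the consistent genes the weakest of the 4 changes had a median size of 0.19 on the log2 scale, and no gene changed by 1 or more in every line. The largest weakest-line change was 0.98, for FKBP3 among higher genes, and 0.77, for NCAM2 among lower genes. The weakest of the 4 changes fell in L363 for 218 of the 403 consistent genes and in ARH77 for 108. Taken line by line, 19 genes were called higher and 13 lower in each of the 4 lines on its own.

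**Figure D1:**
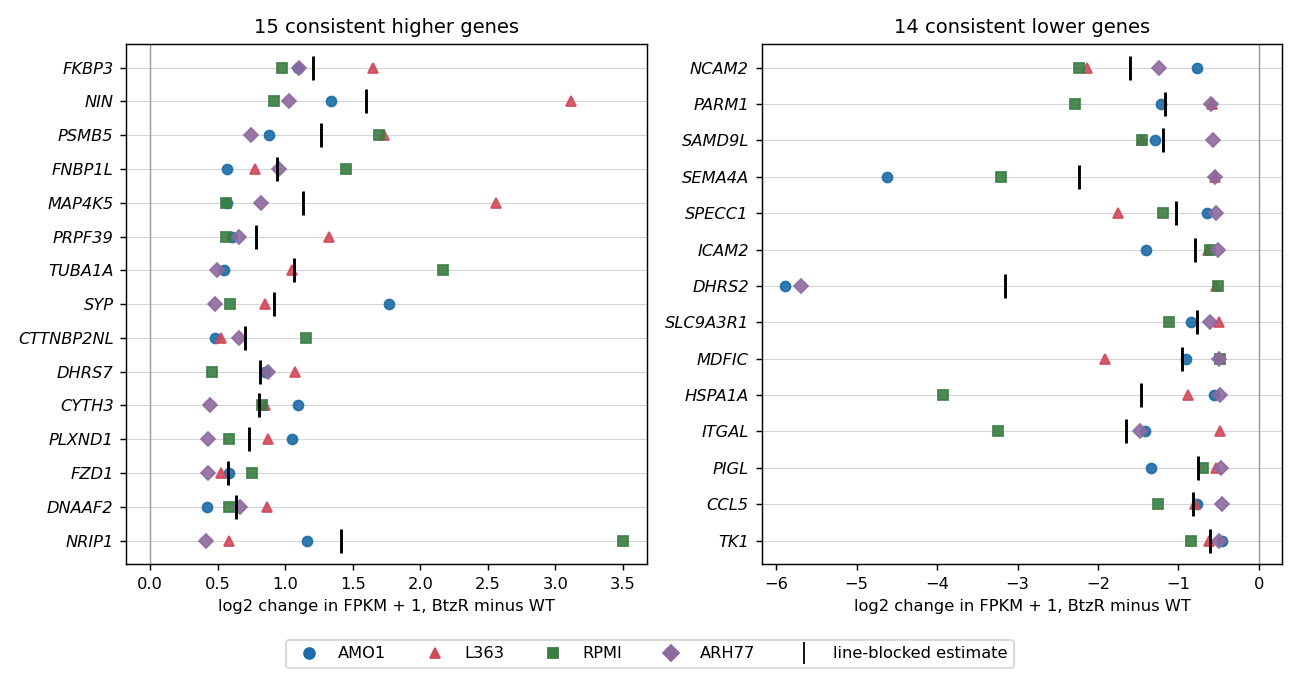
Log2 change in FPKM + 1 (BtzR minus WT) of the 15 consistent higher genes and 14 consistent lower genes with the largest change in their weakest line; each symbol is 1 cell line (mean of 2 BtzR minus mean of 2 WT libraries) and the vertical tick is the line-blocked estimate. All 4 symbols lie on the same side of 0 for every gene, and single lines stand far out for NIN and MAP4K5 (L363), NRIP1 (RPMI), and DHRS2 (AMO1 and ARH77).

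These calls rest on treating libraries as the units. With 1 mean change per line as the unit (4 pairs, 3 residual degrees of freedom), limma called 0 genes at an adjusted p under 0.05, with 641 (4.91%) at an unadjusted p under 0.05 against 3978 (30.5%) in the line-blocked fit, and an exact sign-flip test over 4 lines cannot go below p = 0.125. The statements on all 4 lines are therefore about these 4 derivations. The p-values of the line-blocked fit rest on a spread that mixes differences between libraries, which may be technical, with differences between lines in the change. Those of the within-line and interaction tests rest on the spread between libraries alone.

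PSMB5, the direct target of bortezomib, rose in every line. Its level was 55.2 and 49.9 FPKM in AMO1 WT against 91.3 and 104 in AMO1 BtzR, and 60.1 and 53.01 FPKM in L363 WT against 192 and 187 in L363 BtzR. In the remaining lines it was 54.7 and 52.3 FPKM in RPMI WT against 200.4 and 154 in RPMI BtzR, and 71.6 and 43.2 FPKM in ARH77 WT against 100.2 and 88.8 in ARH77 BtzR. WT and BtzR libraries did not overlap in any line, although the 2 ARH77 WT libraries lay furthest apart. The line-blocked change was 1.26 ± 0.15 (SE, adjusted p = 0.00123), made of 0.88 in AMO1, 1.73 in L363, 1.70 in RPMI and 0.75 in ARH77, and these sizes differed between lines (interaction adjusted p = 0.0078). The call held when any single library was left out, with changes between 1.19 and 1.38. In L363 cells made resistant to carfilzomib, a second inhibitor of the same active site, PSMB5 was 66.4 and 58.1 FPKM, beside 60.1 and 53.01 FPKM in the same WT cells.

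PSMB5 stood apart from the other proteasome genes over the 4 lines. Of the 14 genes of the 20S core, it alone was called higher, while PSMB2 and PSMB3 (other β-ring subunits) were called lower, at -0.27 and -0.34 (21.4% of the list called, against 9.75% of all genes tested). The median change over the 14 genes was 0.10, against -0.0026 over all genes tested. Within lines, 8 of the 14 were called higher in AMO1 (4 lower), 2 in L363 (2 lower), 5 in RPMI (1 lower) and 5 in ARH77 (0 lower). PSMA6, an α-ring subunit, changed by 1.22 in AMO1, -0.32 in L363, 0.14 in RPMI and 0.77 in ARH77 and did not pass (adjusted p = 0.0921). Of the 18 genes of the 19S regulatory particle, which recognizes and unfolds ubiquitinated substrates, PSMD13 alone was called (5.56%). It was lower at -0.25 (adjusted p = 0.0151), and the list's median was -0.20. None of the 5 immunoproteasome and PA28 genes was called by limma, and 2 had an unadjusted p under 0.05. PAAF1, an assembly factor of the 19S base, was consistently lower (-0.64 ± 0.10, adjusted p = 0.00517), and PSMG1, an assembly chaperone of the 20S core, and NGLY1, the deglycosylating enzyme that activates the NRF1 factor of proteasome gene induction, were called lower at -0.40 and -0.30 without full separation. PSMB2 lost its call in 12 of 16 fits that left out 1 library, PSMB3 in 9 of 16, and NGLY1 without AMO1 WT replicate 2 or RPMI WT replicate 2 (adjusted p up to 0.1).

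**Figure D2:**
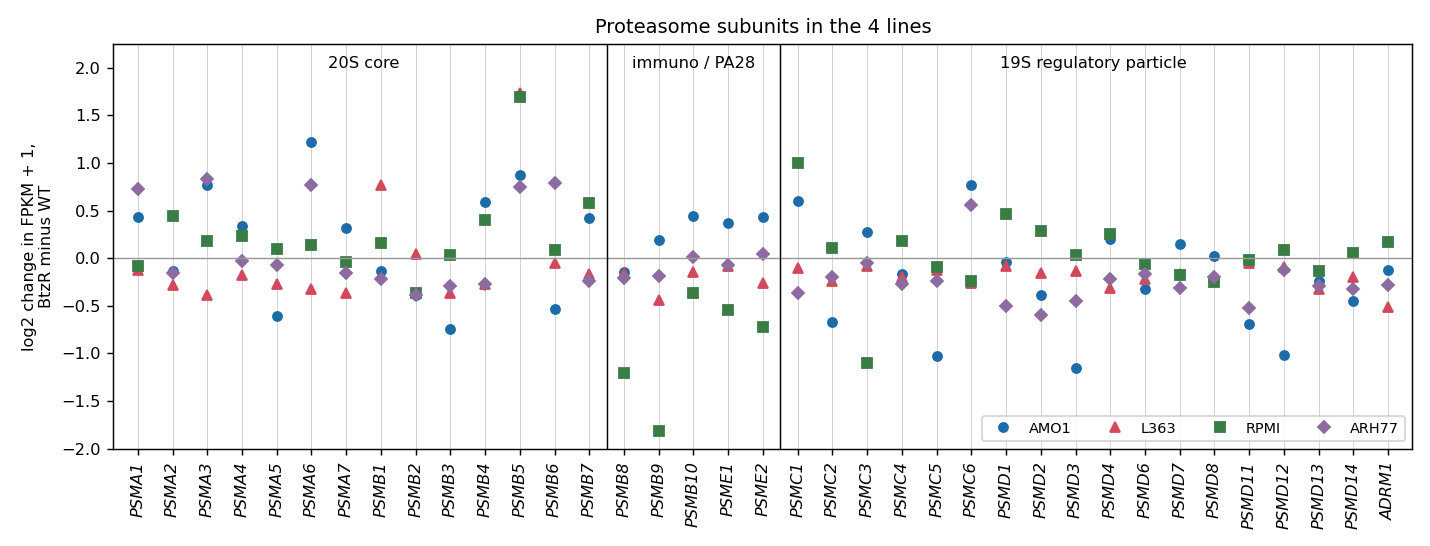
Log2 change in FPKM + 1 (BtzR minus WT) of the 14 genes of the 20S core, 5 immunoproteasome and PA28 genes, and 18 genes of the 19S regulatory particle, each symbol a cell line. PSMB5 is the core gene whose 4 symbols all lie at 0.75 to 1.73, while no other core gene has 4 symbols above that level.

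The 2 consistent higher genes with a larger change in their weakest line than PSMB5, FKBP3 and NIN, were on the same chromosome. FKBP3, a nuclear peptidyl-prolyl isomerase of the FK506-binding family, was at 35.2 and 42.8 FPKM in AMO1 WT against 84.2 and 84.1 in AMO1 BtzR, and 51.8 and 52.9 FPKM in L363 WT against 167 and 166 in L363 BtzR. In the remaining lines its level was 18.03 and 16.4 FPKM in RPMI WT against 35.98 and 33.6 in RPMI BtzR, and 23.7 and 22.2 FPKM in ARH77 WT against 48.3 and 52.6 in ARH77 BtzR. Its FPKM roughly doubled in AMO1, RPMI and ARH77 and rose further in L363, for a line-blocked change of 1.21 ± 0.09 (SE, adjusted p = 1.9e-05). NIN (ninein), a centrosomal protein that anchors microtubules, was at 5.6 and 5.26 FPKM in AMO1 WT against 14.9 and 15.7 in AMO1 BtzR, and 7.66 and 8.19 FPKM in L363 WT against 73.9 and 78.96 in L363 BtzR. In RPMI it moved from 3.44 and 4.11 to 7.23 and 8.87 FPKM and in ARH77 from 6.01 and 7.16 to 14 and 14.9 FPKM, so the largest of the 4 changes, 3.12, was that of L363 (line-blocked 1.602 ± 0.25, adjusted p = 0.0045). In L363 CfzR cells FKBP3 was at 49.6 and 56.3 FPKM and NIN at 7.99 and 8.08 FPKM, beside the L363 WT values above.

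**Figure D3:**
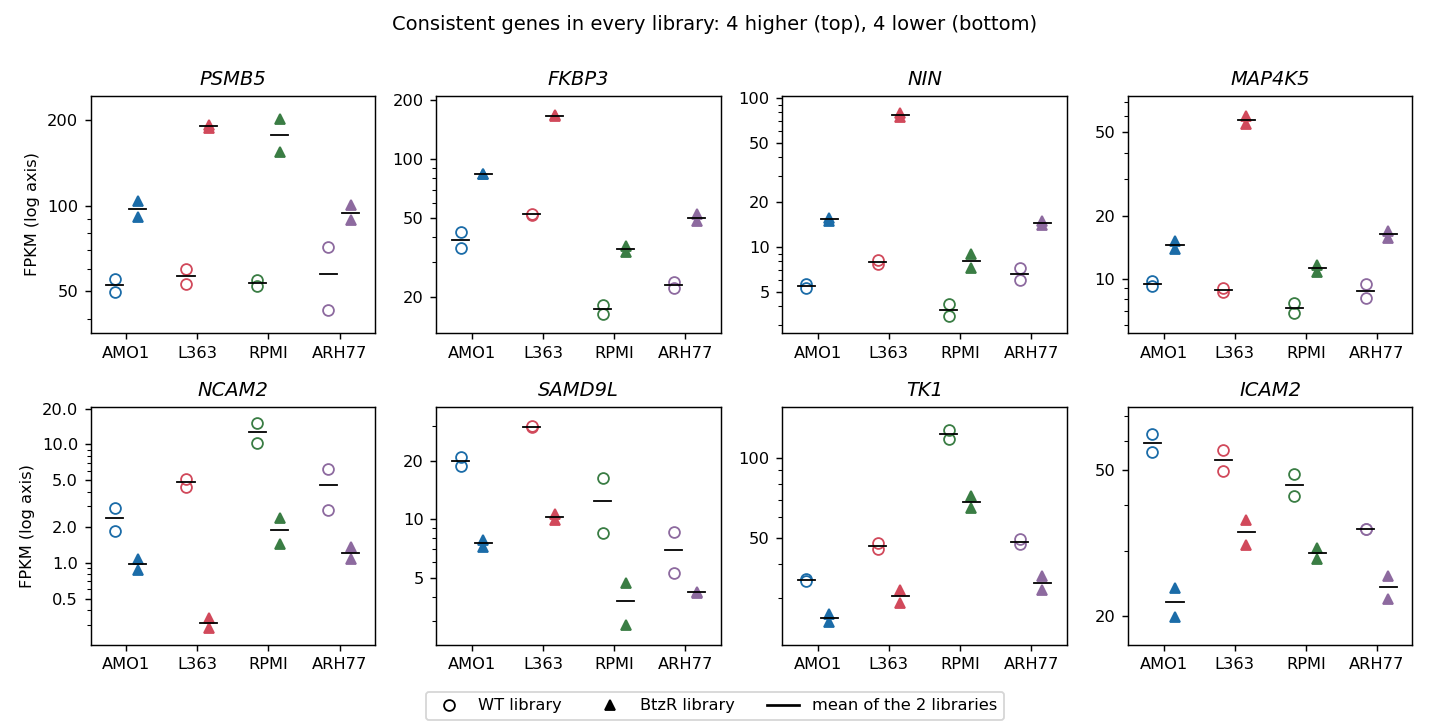
FPKM (log axis) in each of the 16 libraries for 4 consistent higher genes (top) and 4 consistent lower genes (bottom); open circles are WT libraries, filled triangles BtzR libraries and bars the means of 2. In every panel the triangles lie on the same side of the circles in all 4 lines, and the step is widest in L363 for NIN and MAP4K5.

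The stretches upstream of the annotated starts of these 3 genes, PSMB5, FKBP3 and NIN, are shown because these genes had the largest changes in their weakest line among the consistent higher genes. They are the 250 bases before the first RefSeq start (GRCh38.p14, minus strand of chromosome 14), for PSMB5 chr14:23035221-23035470, for FKBP3 chr14:45134482-45134731 and for NIN chr14:50831163-50831412, with CCAAT and GGGCGG boxes on either strand in capitals.
PSMB5: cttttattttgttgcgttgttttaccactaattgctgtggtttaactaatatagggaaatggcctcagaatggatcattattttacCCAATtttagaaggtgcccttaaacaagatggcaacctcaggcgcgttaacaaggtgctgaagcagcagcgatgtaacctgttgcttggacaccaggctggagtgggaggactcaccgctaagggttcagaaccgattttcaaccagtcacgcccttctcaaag
FKBP3: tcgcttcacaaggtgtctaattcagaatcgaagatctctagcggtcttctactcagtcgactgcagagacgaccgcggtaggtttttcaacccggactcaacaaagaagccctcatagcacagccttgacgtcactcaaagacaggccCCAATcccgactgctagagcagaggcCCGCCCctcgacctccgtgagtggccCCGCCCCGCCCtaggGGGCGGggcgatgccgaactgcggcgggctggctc
NIN: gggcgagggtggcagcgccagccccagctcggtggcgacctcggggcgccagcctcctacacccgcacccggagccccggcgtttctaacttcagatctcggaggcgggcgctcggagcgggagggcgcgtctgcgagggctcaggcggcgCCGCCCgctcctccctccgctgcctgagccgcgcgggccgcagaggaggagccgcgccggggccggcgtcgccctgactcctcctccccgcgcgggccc
The FKBP3 window held overlapping GGGCGG boxes and a CCAAT box, the PSMB5 window a CCAAT box alone and the NIN window a GGGCGG box alone, so the 3 windows had no arrangement in common. None of the 3 held the antioxidant response element core TGACNNNGC, the ATF4 composite motif TGATGNAA, a heat shock element or a CArG box. Counted over the full RefSeq windows (250 bases before to 50 after the start, both strands), TGACNNNGC was in 28 of 146 consistent higher genes with a window (19.2%), 37 of 186 consistent lower genes (19.9%) and 19.5% of tested genes. A CArG box, the site of serum response factor, was in 6 of 146 consistent higher genes (4.11%). It was in 3 of 186 consistent lower genes (1.61%) and 1.67% of tested genes. The 6 higher genes were ACIN1, ACTN1, SH3KBP1, FAM53C, NSD1 and NR2F1. ACTN1 is an actin cross-linker, and the cytoskeletal genes TPM1, ACTB and TUBB6 described below were not among the 6. GGGCGG was in 75.3% of the consistent higher, 75.8% of the consistent lower and 75.5% of tested genes, and CCAAT in 48.6%, 40.3% and 43.5%. TGATGNAA was in 3.42%, 2.15% and 2.79% in the same order, and a heat shock element in no consistent gene and in 0.45% of tested genes. These letter matches are a description of the windows and show no binding.

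Chromosomes 14 and 5 held a large share of the consistent higher genes. By RefSeq annotation, 37 of 415 tested genes of chromosome 14 (8.92%) and 39 of 569 of chromosome 5 (6.85%) were consistently higher, against 1.35% over all chromosomes. Together they were 76 of the 176 consistent higher genes (43.2%) on chromosomes that hold 7.53% of tested genes. Of the 15 consistent higher genes with the largest weakest-line change, 7 were on chromosome 14: besides the 3 above, MAP4K5 (a Ste20-type kinase, 8.67 and 9.03 to 54.6 and 59.8 FPKM in L363), PRPF39 (a splicing factor of the U1 particle), DHRS7 (a short-chain dehydrogenase) and DNAAF2 (a dynein arm assembly factor). Rescaling the libraries to the same sum, quantile normalization, a pseudocount of 0.1 FPKM or a filter at 5 FPKM left 36 to 44 consistent higher genes on chromosome 14 and 38 to 46 on chromosome 5. Without the AMO1 line the chromosome 5 count was 19 of 553, against 27 of 407 on chromosome 14. Without L363 the counts were 109 on chromosome 5 and 92 on chromosome 14, and without ARH77 they were 92 and 55. Without RPMI they were 37 of 548 and 38 of 400. Over all chromosomes the consistent higher share was 0.767% without AMO1, 3.23% without L363, 5.4% without ARH77 and 1.4% without RPMI. DNA was not measured in these libraries.

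**Figure D4:**
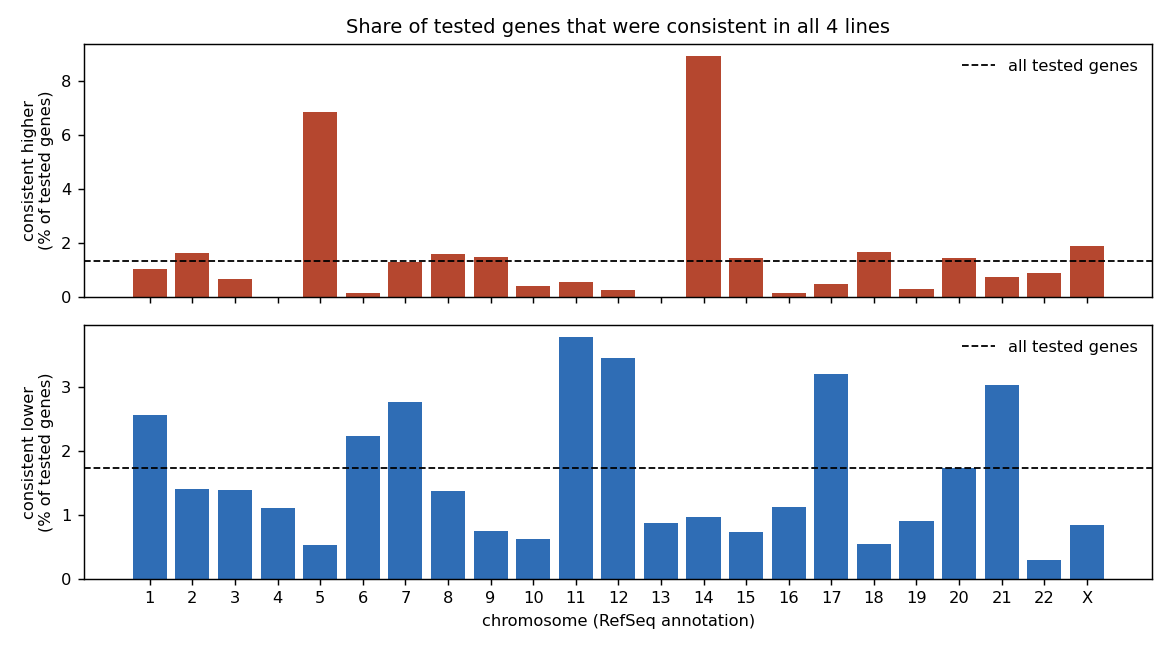
Percent of tested genes on each chromosome that were consistently higher (top) or consistently lower (bottom) in all 4 lines; dashed lines mark the share over all tested genes, 1.35% and 1.74%. The bars of chromosomes 5 (6.85%) and 14 (8.92%) stand above all others in the upper panel, while in the lower panel chromosomes 11, 12 and 17 are highest at 3.2% to 3.78%.

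Along chromosome 14 the 4 lines rose in different stretches, which overlapped in part. The consistent higher genes were picked for being higher in all 4 lines, so overlap at them is partly set by that rule. In L363, the raised stretches described below held 3 and 12 of the 37 consistent higher genes of this chromosome. The median change over its tested genes was 0.44 in AMO1, 0.00 in L363, 0.28 in RPMI and 0.07 in ARH77, and neighbouring genes moved together within each line. The stretches below were delimited after their values were seen and are described without a test. In L363, 9 consecutive tested genes from LRP10 (a lipoprotein receptor relative) to CDH24 (a cadherin) were all called higher, at a median of 1.75, and the next gene, ACIN1 (a splicing and apoptosis-linked nuclear protein), changed by 0.24. In RPMI, 4 consecutive genes were higher by 1.46 to 1.70, PSMB5, CDH24, ACIN1 and C14orf119, between C14orf93 at -0.03 and SLC7A8 at -0.04. PSMB5 and CDH24 were thus the genes that lay in both stretches.

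CDH24, next to PSMB5, was at 7.5 and 6.69 FPKM in AMO1 WT against 23.2 and 24.4 in AMO1 BtzR, and 2.52 and 3.1 FPKM in L363 WT against 84.1 and 79.7 in L363 BtzR. In RPMI it moved from 9.66 and 6.94 to 29.4 and 21.9 FPKM and in ARH77 from 0.41 and 0.39 to 0.58 and 0.44 FPKM. It was the neighbour with the largest change in L363, 4.45, and it was under 1 FPKM in ARH77, where the groups were separated by a small gap. PRMT5, an arginine methyltransferase in the L363 stretch, was at 72.1 and 74 FPKM in L363 WT against 244 and 256 in L363 BtzR. In RPMI, where PRMT5 lies outside the raised stretch, its level was 76.2 and 69.6 FPKM in WT against 84.7 and 77.9 in BtzR cells. In L363 CfzR cells PRMT5 was at 81.9 and 72.8 FPKM and CDH24 at 4.13 and 4 FPKM, beside the same WT libraries.

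A further stretch of chromosome 14 held FKBP3 and NIN. In L363, all 26 consecutive tested genes from C14orf28 to PYGL were called higher, at 0.62 to 3.12 and a median of 1.22, and this stretch includes FKBP3, PRPF39, DNAAF2, MAP4K5, SAV1 and NIN. In ARH77 the stretch was part of a longer one: of the 125 tested genes from BAZ1A to VTI1B, 94 were called higher, with a median of 0.73. Over the same 125 genes AMO1 had a median of 0.50, with 82 called higher. In RPMI the 26 genes had a median of 0.19 and a long stretch at the far end of the chromosome was higher, where 90 genes from PPP4R3A on had a median of 0.95 in RPMI and -0.04 in ARH77. Of the 26 genes, 12 were consistently higher.

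**Figure D5:**
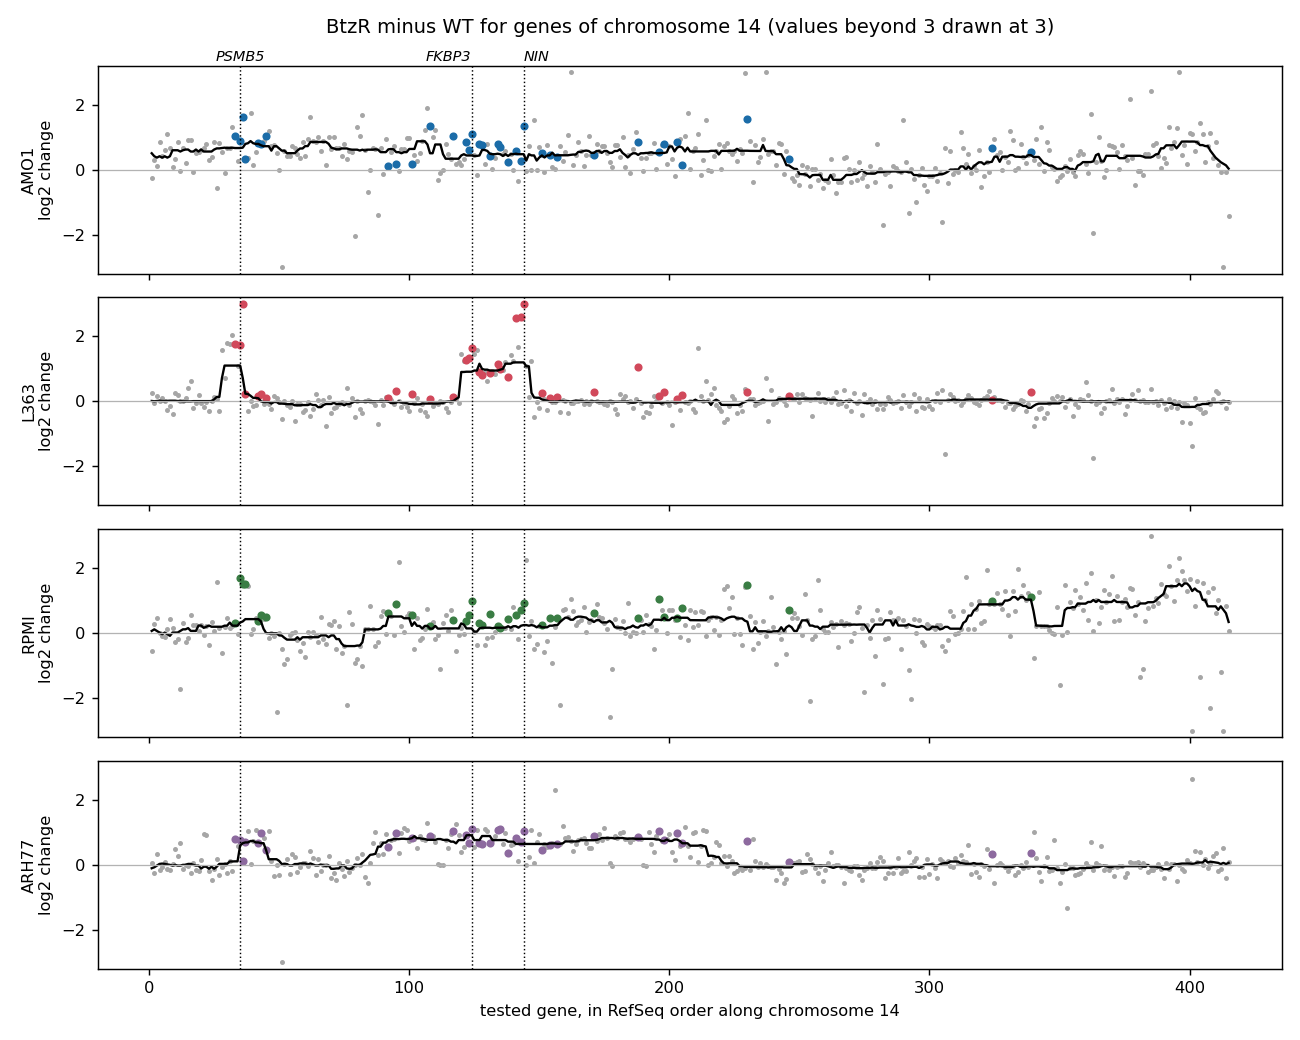
Log2 change in FPKM + 1 (BtzR minus WT) of the 415 tested genes of chromosome 14 in RefSeq order, 1 panel per cell line; coloured points are the 37 consistent higher genes, grey points the others and the black line a running median of 15 genes. The median rises over 2 short stretches in L363, over much of the left part in AMO1, and over a short and a long stretch in ARH77. PSMB5, FKBP3 and NIN (dotted lines) lie in the L363 stretches. In RPMI the 26 genes of the L363 stretch with FKBP3 and NIN had a median of 0.19.

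BCL2L2, an anti-apoptotic BCL2 relative encoded a few genes after PSMB5, was consistently higher at 0.79 in AMO1, 0.23 in L363, 0.56 in RPMI and 0.98 in ARH77 (line-blocked 0.64 ± 0.10, adjusted p = 0.00547). The same held for MTHFD1, a folate-pathway enzyme of the same chromosome (0.86 in AMO1, 0.08 in L363, 0.47 in RPMI and 0.97 in ARH77). For both the L363 step was the smallest, with BCL2L2 at 4.21 and 5.07 FPKM in WT and 5.72 and 5.44 in BtzR cells. HIF1A, the oxygen-regulated transcription factor subunit, and ACTN1, an actin cross-linker, were also among the 37, at 0.70 and 1.01. These 2 genes and the chromosome 5 genes named next were picked out after their values were seen. On chromosome 5 the median change was 0.39 in AMO1 and 0.44 in RPMI but 0.00 in L363 and 0.03 in ARH77. The ARH77 libraries separated upward for 35.5% of its tested genes, against 45.1% on chromosome 14 and at most 20.8% (chromosome 13) elsewhere. From KIAA0141 (0.67) to the far end, most genes were higher in ARH77, among them RPS14 (0.66) and NPM1 (0.61). Some were lower, such as TIMD4 (-1.38). This stretch was delimited after its values were seen and was not tested. It holds NDST1 (a heparan sulfate sulfotransferase), SPRY4 (an inhibitor of receptor tyrosine kinase signalling) and NR3C1 (the glucocorticoid receptor). These genes were consistently higher, at 0.58, 1.41 and 0.46. The changes of NR3C1 were 0.67 in AMO1, 0.18 in L363, 0.47 in RPMI and 0.53 in ARH77.

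A further 100 consistent higher genes lay outside chromosomes 5 and 14. FNBP1L, an F-BAR protein that links membrane curvature to actin, rose by 0.94 ± 0.12 (SE, adjusted p = 0.0014), from 2.15 and 2.62 to 7.05 and 9.61 FPKM in RPMI and from 0.79 and 0.82 to 2.3 and 1.89 in L363. TUBA1A, an α-tubulin, was called at 1.06 ± 0.21, most of it from RPMI (12.1 and 8.35 to 49.9 and 47.5 FPKM). Its reads can be shared with near-identical α-tubulin genes, of which TUBA1B, named here after its value was seen, was consistently lower (-0.44). PLXND1 and FZD1, receptors for semaphorins and for Wnt ligands, rose by 0.74 and 0.57. CYTH3, an exchange factor for ARF GTPases, rose by 0.80. SYP (synaptophysin) and CTTNBP2NL were low in WT cells and rose by 0.92 and 0.70, and NRIP1, a nuclear receptor corepressor, by 1.42, with 0.17 and 0.16 FPKM in RPMI WT against 13.3 and 11.2 in RPMI BtzR. The NRIP1 call was lost without AMO1 BtzR replicate 1 (adjusted p = 0.0517).

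Within the list of 25 cytoskeletal, annexin and S100 genes, 7 were called higher and 1 lower, 32.0% called against 9.75% of all genes tested. TPM1 (a tropomyosin), ACTB (β-actin) and TUBB6 (a β-tubulin) were consistently higher, at 1.02, 0.45 and 1.29. For TUBB6 the changes were 1.75 in AMO1, 0.12 in L363, 2.85 in RPMI and 0.45 in ARH77, and they differed between lines (interaction adjusted p = 2.4e-08). VIM, TPM4, TAGLN2 and FLNA, an intermediate filament protein and actin-associated proteins, were called higher without separating in all 4 lines. ANXA2, a calcium-dependent membrane-binding annexin, was lower in every line, at -0.36 in AMO1, -0.29 in L363, -0.35 in RPMI and -0.46 in ARH77 (adjusted p = 0.00477). The list's median was 0.07.

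Among consistent lower genes, NCAM2 had the largest change in its weakest line. NCAM2, an immunoglobulin-family adhesion molecule, was at 1.86 and 2.93 FPKM in AMO1 WT against 1.07 and 0.87 in AMO1 BtzR, and 4.41 and 5.14 FPKM in L363 WT against 0.28 and 0.34 in L363 BtzR. Its level was 10.3 and 15.2 FPKM in RPMI WT against 1.45 and 2.37 in RPMI BtzR, and 2.82 and 6.22 FPKM in ARH77 WT against 1.08 and 1.36 in ARH77 BtzR. All BtzR libraries lay under their WT partners, for a change of -1.596 ± 0.21 (SE, adjusted p = 0.00203). ITGAL, the α chain of the LFA-1 integrin, fell by 1.65 ± 0.29 (adjusted p = 0.0068), and ICAM2, a ligand of LFA-1, fell by 0.79 ± 0.11 (adjusted p = 0.00322). ITGAL moved from 11.2 and 11.2 to 0.24 and 0.33 FPKM in RPMI and from 8.65 and 14.4 to 2.45 and 4.53 in ARH77, but was near 1 FPKM or lower in L363. ICAM2 moved from 55.9 and 62.5 to 19.8 and 23.7 FPKM in AMO1. SEMA4A, a semaphorin of immune cells, changed by -4.63 in AMO1, -0.55 in L363, -3.21 in RPMI and -0.55 in ARH77. CCL5, a T-cell-attracting chemokine, was lower at -0.77 in AMO1, -0.79 in L363, -1.25 in RPMI and -0.46 in ARH77, without a detected difference between lines (interaction adjusted p = 0.236). TRAT1, a T-cell receptor-associated adaptor in the T-cell marker list, was also consistently lower, and its part in the list's sum is the largest in L363 WT, at 8.02 and 8.08 FPKM.

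SAMD9L, an interferon-inducible growth suppressor, was at 18.8 and 20.8 FPKM in AMO1 WT against 7.78 and 7.23 in AMO1 BtzR, and 29.7 and 29.9 FPKM in L363 WT against 9.88 and 10.6 in L363 BtzR. In the remaining lines it was 8.5 and 16.3 FPKM in RPMI WT against 2.87 and 4.71 in RPMI BtzR, and 5.32 and 8.55 FPKM in ARH77 WT against 4.24 and 4.2 in ARH77 BtzR. The change was -1.19 ± 0.16 (SE, adjusted p = 0.00203), with no detected difference between lines (interaction adjusted p = 0.119). Of 30 interferon-stimulated genes, 5 were called lower and none higher (16.7% called lower, against 5.29% of all genes tested, median -0.19), and IRF7, the regulator of type I interferon, was the consistent one (-0.48 in AMO1, -0.67 in L363, -1.02 in RPMI and -0.19 in ARH77). BST2, IFIT1 and SP110 were called lower, at -0.45, -0.43 and -0.57. The list's median by line was 0.01 in AMO1, -0.51 in L363, -0.75 in RPMI and 0.16 in ARH77. Of 13 genes of HLA class I and peptide loading, 15.4% were called, against 9.75% of all genes tested. TAP2, a subunit of the peptide transporter, was consistently lower (-0.49 ± 0.08, adjusted p = 0.00517). NLRC5, the class I transactivator, was called lower (-0.33). BST2 lost its call in 7 of 16 fits that left out 1 library, IFIT1 in 11 of 16, SP110 in 10 of 16, and NLRC5 without any single AMO1, RPMI or ARH77 library (adjusted p up to 0.0979).

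TK1, the S-phase thymidine kinase, was at 35.2 and 34.7 FPKM in AMO1 WT against 24.4 and 26.03 in AMO1 BtzR, and 45.7 and 48.1 FPKM in L363 WT against 32.2 and 28.5 in L363 BtzR. Its level was 118 and 128 FPKM in RPMI WT against 72.1 and 65.04 in RPMI BtzR, and 47.5 and 49.6 FPKM in ARH77 WT against 32.1 and 36.3 in ARH77 BtzR. The change was -0.60 ± 0.06 (SE, adjusted p = 0.00106), made of -0.46 in AMO1, -0.61 in L363, -0.84 in RPMI and -0.50 in ARH77. Among 30 proliferation genes MCM2 and CDC20, of DNA replication licensing and mitotic exit, were called lower (-0.24 and -0.29) and none higher (6.67% called, against 9.75% of all genes tested). MCM2 lost its call in 4 of 16 fits that left out 1 library, and CDC20 in 12 of 16 (adjusted p up to 0.0983). DHRS2, a short-chain dehydrogenase, was at 289 and 221 FPKM in AMO1 WT against 3.71 and 2.88 in AMO1 BtzR, and 167 and 250.1 FPKM in ARH77 WT against 3.94 and 2.18 in ARH77 BtzR. In L363 it was 1.66 and 0.66 FPKM against 0.58 and 0.33, and in RPMI 1.25 and 1.24 against 0.65 and 0.52. It fell steeply in AMO1 and ARH77, the lines with high WT levels, and its change did not pass within L363 or RPMI. KLF2, a quiescence-linked zinc finger factor of lymphocytes, fell by 1.299 ± 0.21 (adjusted p = 0.00517) and changed by -1.19 in AMO1, -2.30 in L363, -1.37 in RPMI and -0.33 in ARH77. It was the single call among 24 tested plasma cell and B-cell transcription factors (4.17%, against 9.75% of all genes tested). PARM1 (a mucin-like membrane protein) and SPECC1 (a coiled-coil cytoskeletal protein) were called lower at -1.17 and -1.03 on the log2 scale. SLC9A3R1, MDFIC and PIGL, a scaffold of membrane transporters, a regulator of transcription factors and an enzyme of glycosylphosphatidylinositol anchor synthesis, changed by -0.76, -0.95 and -0.76.

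Of the 227 consistent lower genes, 77 (33.9%) lay on chromosomes 11, 12 and 17, which hold 17% of tested genes. The median changes of these chromosomes were -0.10, -0.38 and -0.34 in AMO1, against -0.02, 0.00 and 0.00 in L363. In RPMI they were -0.23, 0.05 and 0.08, and in ARH77 -0.04, -0.06 and -0.08. Named consistent lower genes from chromosome 17 include SPECC1, ICAM2, SLC9A3R1, PIGL, CCL5, TK1 and BECN1. PSMB3, GABARAP, EVI2A and EVI2B, called lower without separating in all 4 lines, are also on chromosome 17.

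In lists of stress pathways that bortezomib is known to engage, 9 of the 10 genes called over the 4 lines were lower. Of all 1273 genes called, 691 were lower. The called shares were 15.8% of chaperones, 12% of unfolded protein response genes, 4.17% of ATF4 targets and 13.6% of NRF2 genes, against 9.75% of all genes tested. The list medians were -0.11, -0.31, 0.014 and 0.002 in the same order. Within lines, 7 chaperones were called higher and 1 lower in AMO1, against 2 higher and 7 lower in RPMI. Of the NRF2 genes 13 were called higher and 6 lower in RPMI, against 0 higher and 6 lower in ARH77. Among 19 tested cytosolic chaperones, HSPA1A, DNAJB6 and HSPA4L were called lower and none higher. HSPA1A, the inducible HSP70, was at 135 and 78.7 FPKM in RPMI WT against 7.28 and 4.64 in RPMI BtzR, and at 23.3 and 30.9 against 13.6 and 14.7 in L363. Its call (-1.46 ± 0.40, adjusted p = 0.039) was lost in 10 of the 16 fits that left out a library (each AMO1 and RPMI library, L363 WT replicate 2 and L363 BtzR replicate 1, adjusted p up to 0.0791), and its reads can be shared with its near-identical copy HSPA1B. Of 25 genes of the unfolded protein response and folding in the endoplasmic reticulum, PDIA4 (a disulfide isomerase) and SEC61A1 (the translocon channel) were called lower, at -0.80 and -0.32, and CANX (calnexin), on chromosome 5, higher at 0.32. Of 24 tested ATF4 targets, XPOT, a transfer RNA export factor, was called, lower at -0.59. Among 22 NRF2 and glutathione genes, 3 were called lower and none higher. FTL (ferritin light chain) was consistently lower at -0.36, and PGD was called lower at -0.23. HSPA4L lost its call in 10 of 16 fits that left out 1 library, CANX in 5 of 16, SEC61A1 in 14 of 16, XPOT in 12 of 16, and PGD without any single AMO1 or RPMI library (adjusted p up to 0.0993).

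Lists of apoptosis and drug transport held calls in both directions, at 25.0% of 16 BCL2 family genes and 22.2% of 18 ABC transporters. Lists of degradation held lower calls only, at 12.5% of 24 autophagy genes and 8.33% of 24 ubiquitin genes. Of all genes tested, 9.75% were called. BECN1 (beclin 1, of autophagy initiation) was consistently lower at -0.27, and CTSS (cathepsin S) and GABARAP (of autophagosome membranes) were called lower, with CTSS at -2.49 in AMO1, -1.32 in L363, -3.49 in RPMI and 0.40 in ARH77. UBE2L6, the conjugating enzyme of the ubiquitin-like protein ISG15, and STUB1, the ligase that ubiquitinates chaperone clients, were consistently lower (-0.68 and -0.32). In the BCL2 family BAK1, a pro-apoptotic pore former, was consistently lower at -0.38, BCL2L12 and BMF were called lower, and BCL2L2 was the consistent higher gene described above. BAK1 changed by -0.03 in L363 and -0.27 in ARH77 and passed in neither line on its own. Among 18 tested ABC transporters, ABCC10 was consistently lower (-0.36), ABCB8 was called lower, and 2 were called higher, among them ABCC4 at 0.25. ABCB1, the multidrug efflux pump, stayed under 1 FPKM in all 16 libraries. FDXR and XPC, p53 targets of electron transfer and DNA repair, were consistently lower (-0.63 and -0.26). They were the 2 calls among 20 genes of that list (10.0%, against 9.75% of all genes tested). ABCC4 and XPC lost their calls in 14 of 16 fits that left out 1 library, BCL2L12 in 8 of 16, STUB1 in 4 of 16, and BMF without any single AMO1, L363 or RPMI library (adjusted p up to 0.0933).

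Metabolic lists showed shared changes in single enzymes. COX5A, a subunit of cytochrome c oxidase, was consistently higher (0.42 ± 0.07, adjusted p = 0.00644) and UQCRC1 of complex III was called higher, 2 of 28 tested oxidative phosphorylation genes. The median of that list was 0.38 in AMO1, -0.15 in L363, 0.19 in RPMI and 0.12 in ARH77. None of 21 glycolysis genes was called by limma, although 5 had an unadjusted p under 0.05. In one-carbon metabolism MTHFD1 and MAT2A, the S-adenosylmethionine synthase, were consistently higher (0.60 and 0.35) and SHMT2, the mitochondrial serine hydroxymethyltransferase, consistently lower (-0.40). MAT2A changed by 0.03 in L363 and 0.34 in ARH77 and passed in neither line on its own. DHCR7, the last enzyme of cholesterol synthesis, was consistently lower (-0.33), the single call among 23 genes of that pathway. TRAF1, an adaptor induced by NF-κB, was the single call among 22 NF-κB genes, higher at 1.96 in AMO1, 0.29 in L363, 2.24 in RPMI and 0.62 in ARH77. MAT2A and SHMT2 lost their calls in 7 of 16 fits that left out 1 library, DHCR7 in 3 of 16, and UQCRC1 without any single AMO1 or RPMI library (adjusted p up to 0.0697).

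Several of the large line-blocked changes were not shared by all 4 lines. CD53, a leukocyte tetraspanin, was at 99.9 and 129.5 FPKM in AMO1 WT against 0.27 and 0.59 in AMO1 BtzR, and 23.4 and 17.4 FPKM in RPMI WT against 0.04 and 0.32 in RPMI BtzR. In the other lines it was 88.9 and 92 FPKM in L363 WT against 98.3 and 96.5 in L363 BtzR, and 154 and 182 FPKM in ARH77 WT against 160.3 and 165 in ARH77 BtzR. It fell under 1 FPKM in AMO1 and RPMI, and its changes of 0.11 in L363 and -0.04 in ARH77 did not pass (interaction adjusted p = 6.3e-10). CD37, a further tetraspanin, and CRIP1, a LIM-domain protein, also fell in AMO1 and RPMI (-5.44 in AMO1, -0.02 in L363, -5.97 in RPMI and -0.05 in ARH77 for CD37). EVI2B, a leukocyte membrane glycoprotein, was also lower in L363 (-3.73 in AMO1, -1.83 in L363, -6.56 in RPMI and 0.28 in ARH77). The line-blocked calls of CD53, CD37 and CRIP1 (adjusted p = 0.0425, 0.0356 and 0.0486) were lost when any AMO1 or RPMI library was left out, and CRIP1 also without L363 BtzR replicate 1, with adjusted p up to 0.1. GAGE8, of the cancer-testis GAGE family of near-identical copies, was at 0 FPKM in BtzR cells of AMO1 and RPMI. On the higher side, CKB (creatine kinase), CD276 (the B7-H3 surface protein), ADSSL1, SAMD4A and ATP1B1 rose in AMO1 and RPMI, with L363 and ARH77 changes of 0.29 and 0.02 for CD276. SAMD4A was also called higher in ARH77 (0.72, adjusted p = 0.002). Of the genes named in this group, CKB, ADSSL1 and SAMD4A, and CRIP1 among the lower genes, are on chromosome 14. ATP1B1 lost its call in 5 of 16 fits that left out 1 library, GAGE8 in 9 of 16, and CKB, CD276, ADSSL1 and SAMD4A without any single AMO1 or RPMI library (adjusted p up to 0.0879).

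A mixed list of 14 surface genes held those the study names for proteasome inhibitor resistance (such as CD53, EVI2B, ITGB7 and MME), those it names in other comparisons, and related genes. The first were picked on resistant cells of these lines, so they are not independent evidence of their direction. Of 13 tested genes, CD53, EVI2A, EVI2B and ITGB7 (an integrin β chain) were called lower and CD99 higher (38.5% called), and none was consistent (9.75% of all genes were called). All 13 differed between lines by the interaction test, against 67.2% of all genes tested. ITGB7 was at 40.4 and 71.99 FPKM in AMO1 WT against 0.31 and 0.45 in AMO1 BtzR, and 1257 and 974 FPKM in RPMI WT against 72.3 and 102 in RPMI BtzR. Its changes in L363 and ARH77 were -0.03 and -0.05. The calls of CD53, EVI2A and ITGB7 were lost without any single AMO1 or RPMI library, and that of CD99 without any single AMO1, L363 or RPMI library (adjusted p up to 0.0983). MME (CD10), a membrane metalloprotease, changed by 1.35 in AMO1, -0.36 in L363, 2.14 in RPMI and -0.16 in ARH77 and did not pass over the 4 lines (adjusted p = 0.114). Among 27 leukocyte surface genes, 7 were called lower and 1 higher (29.6% called), and among 24 myeloma surface targets 5 lower and 1 higher (25.0%), against 9.75% of all genes tested. CD38, an ectoenzyme and antibody target, changed by -1.04 in AMO1, -0.06 in L363, -3.80 in RPMI and -1.46 in ARH77, and GPRC5D, an orphan receptor, by -3.47 in AMO1, -1.11 in L363, -1.92 in RPMI and 0.25 in ARH77. Neither separated in every line. CD38 and GPRC5D lost their calls in 4 of 16 fits that left out 1 library (adjusted p up to 0.0582).

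Some genes moved in opposite directions in different lines. In all, 168 genes were called with a change of at least 1 each way. HLA-DRA, the α chain of HLA class II, was at 218 and 223 FPKM in AMO1 WT against 1803 and 1688 in AMO1 BtzR, and 80.8 and 99.9 FPKM in RPMI WT against 0.35 and 0.85 in RPMI BtzR. In the other lines it was 191 and 178 FPKM in L363 WT against 69.97 and 98.02 in L363 BtzR, and 967 and 979 FPKM in ARH77 WT against 1124 and 1058 in ARH77 BtzR. It rose in AMO1, fell in RPMI and L363 and did not pass in ARH77. Of the 13 genes of the class II list, limma called 0 over the 4 lines, with 0 at an unadjusted p under 0.05, and the list had medians of 3.02 in AMO1, -0.93 in L363, -1.45 in RPMI and 0.16 in ARH77, with 13 of 13 called higher in AMO1. APBB1IP, an adaptor of integrin activation, fell in AMO1 and RPMI (-4.39 and -5.56) and rose in L363 (2.80). CD4, a T-helper co-receptor, was at 83.6 and 98.2 FPKM in AMO1 WT against 0.02 and 0.03 in AMO1 BtzR, and 6.91 and 5.34 FPKM in L363 WT against 47.1 and 44.8 in L363 BtzR. HLA-DMB, which loads peptides on class II, and OLFM1, a secreted glycoprotein, rose in AMO1 (3.96 and 2.92) and fell in RPMI (-1.89 and -1.20).

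Most tested genes responded differently in the 4 lines. The interaction test found a difference for 8775 genes (67.2%), and 253 of the 403 consistent genes were among them, so that these shared a direction but not a size. AMO1 and RPMI changed most, with 3189 genes called higher (24.4%) and 3211 lower (24.6%) in AMO1 and 3742 (28.6%) and 3043 (23.3%) in RPMI. In L363 621 were called higher (4.75%) and 602 lower (4.61%), and in ARH77 677 (5.18%) and 802 (6.14%). Called in opposite directions in different lines were 2135 genes. Without AMO1 the fit called 103 genes higher and 135 lower, and without RPMI 232 and 325. Leaving out any single AMO1 or RPMI library also moved the called counts by over 1.5 times, to between 240 and 311 higher and 272 and 367 lower. Without ARH77 WT replicate 1 the consistent lower count was 361, and without ARH77 WT replicate 2 there were 351 consistent higher and 342 consistent lower genes.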

How the data were processed

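RNA was extracted from frozen pellets and sequenced on the BGISEQ-500 platform by the study's provider, 2 libraries per group. The authors deposited 1 table of FPKM values per gene and library. The submitters' processing notes name HISAT2 2.0.4, Bowtie2 2.2.5 and RSEM 1.2.12 without their roles, and the genome build is not given in the sources used here. The table holds no counts, so sequencing depth is unknown and no counting interval was computed. Of its 20 value columns, 0 lacked a sample. A set of 25 symbols that a spreadsheet had turned into dates was restored by gene identifier.

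The 16 WT and BtzR libraries were transformed to log2(FPKM + 1) after keeping genes with a mean of at least 1 FPKM in any of the 8 groups. Changes were fitted with limma 3.58.1 in R 4.3.3 (line as block plus resistance, empirical Bayes with trend), with Benjamini-Hochberg adjustment over all 13063 genes. Within-line changes and the interaction F test came from a fit of 8 group means. The named genes were up to 15 consistent genes per direction ranked by their smallest change over the lines, the 5 largest called changes per direction that were not consistent, the 5 smallest interaction p-values with calls in opposite directions, a mixed list of 14 surface genes, most of them named in the study, PSMB5, and up to 4 genes from each of 27 lists (551 genes), consistent genes first and then by p. Members, lists and rules were chosen with earlier results of these data known. Chromosomes, gene order and sequences came from RefSeq (GRCh38.p14), which gave a chromosome for 13038 tested genes and a window of 250 bases before to 50 after the start for 10660. Scripts were tested on simulated data. Alternatives covered the pseudocount, the filter, scaling, the model, and leaving out each library or line. Some genes are not reported here.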

Additional observations from a re-analysis of the deposited data

Results flagged for a closer look

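The size of the BtzR effect differed between the 4 lines for 8775 of 13063 tested genes by the interaction test, and 253 of the 403 consistent genes were among them. PSMB5 was one of these, at an interaction adjusted p of 0.0078 with changes from 0.75 in ARH77 to 1.73 in L363. Genes called in opposite directions in different lines, with a change of at least 1 each way, numbered 168. The 5 of these with the smallest interaction adjusted p were APBB1IP (1.8e-12), CD4 (3.5e-12), HLA-DMB (6e-11), OLFM1 (8.1e-11) and HLA-DRA (1.6e-10). All 13 tested genes of the mixed surface list differed between lines. In the L363 CfzR libraries, which entered no comparison, ABCB1, the multidrug efflux pump, was at 288 and 311.78 FPKM, against at most 0.94 FPKM in the 16 libraries compared.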

How the results depend on the processing

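The counts of genes depended on the unit of replication and on AMO1 and RPMI. Direction in the alternative runs was followed for the named genes only. None of the named genes called over the 4 lines reversed direction in any of these runs. Of 582 genes called higher and 691 lower, the replicate number as a block left 12 and 5, all 12 and 5 of them consistent and 2 and 2 with a change of at least 1. A fit of 1 mean per line called 0 in every count. With an estimated correlation between libraries of a group (0.767) 1 gene was called higher, FKBP3 (adjusted p = 0.00286), and 0 lower, giving 1 and 0 consistent and 1 and 0 with a change of at least 1. Averaging the line effects of the group-means fit called 3164 higher and 3331 lower, 69 and 153 of them with a change of at least 1. The replicate numbers were not shown to pair the libraries, since the deviations of same-numbered libraries correlated at -0.00625 in AMO1, 0.197 in L363, 0.245 in RPMI and 0.225 in ARH77. The 33 higher and 62 lower genes with a change of at least 1 became 107 and 139 at a pseudocount of 0.1 FPKM, 122 and 145 at 0.01, and 21 and 28 without a filter, where 459 were called lower. Without line AMO1 103 and 135 genes were called, 98 and 127 were consistent and 10 and 16 changed by at least 1. Without line L363 416 and 427 were consistent and 64 and 107 changed by at least 1. Without line RPMI 232 and 325 were called and 17 and 20 changed by at least 1. Without line ARH77 1009 were called higher, 677 and 564 were consistent and 73 and 131 changed by at least 1. Leaving out 1 library gave 240 to 866 genes called higher and 272 to 842 lower, 15 to 44 and 20 to 93 with a change of at least 1, 139 to 351 consistent higher and 169 to 361 consistent lower, and 7863 to 9993 with an interaction. Within lines it gave 2354 to 3525 higher and 2495 to 3563 lower in AMO1, 354 to 849 and 308 to 839 in L363, 2951 to 4178 and 2541 to 3378 in RPMI, and 425 to 900 and 364 to 1831 in ARH77. Where a group was left with 1 library, that library was assumed to vary like the others. The cause of these shifts was not tested beyond the fewer samples or genes each alternative uses. Of the 403 consistent genes, 326 stayed consistent after rescaling, 312 after quantile normalization and 400 at a pseudocount of 0.1 FPKM. Named genes that were not called changed sign in some alternatives, and none was called in them. HLA-DMB (0.31) was at -0.27 and -0.58 at pseudocounts of 0.1 and 0.01 FPKM. Without line AMO1, HLA-DMB was at -0.91, CD4 at 0.93, OLFM1 at -0.40, SERINC3 at -0.080, HLA-DOA at -0.10, HLA-DRB5 at -0.32 and HLA-DOB at -0.015. Without line RPMI, HLA-DRA was at 0.67, CD151 at -0.020, CD33 at 0.20, GGT1 at 0.22, TOR1AIP2 at -0.077, PSME2 at 0.070 and PSME1 at 0.071. TOR1AIP2 was at -0.054 without line L363 and PTPRC at -0.058 without line ARH77. With 1 library left out, HLA-DMB ranged from -0.038 to 0.525, SERINC3 from -0.0090 to 0.087, TOR1AIP2 from -0.025 to 0.065 and GGT1 from -0.178 to 0.0062.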
